A study of Mus musculus with 8 samples.

Results

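The interleukin-6 family genes of mouse lung fibroblasts were followed in cells left untreated or treated with recombinant TWEAK, a TNF-related cytokine. They comprised 10 genes, picked by symbol from the 52110 rows of the deposited table that carry one: the ligands Il6, Lif, Il11 and Clcf1, the ligand-binding receptors Il6ra and Il11ra1, the signalling receptors Il6st, Lifr and Osmr, and the feedback inhibitor Socs3. All 10 passed the low-count filter and were tested with the other genes, 17360 in all. The cells were primary fibroblasts from the lungs of wild-type (WT) mice, grown in medium with serum. RNA was sequenced after 48 hours without TWEAK or with TWEAK at 10, 30 or 100 ng/ml, in 2 libraries per group and 8 in all. The labels name no strain, sex or age, and nothing says that the libraries of 1 group had separate origins. The p-values therefore measure spread between libraries that may be only technical.

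Cytokines of this family signal through gp130, the shared receptor chain encoded by Il6st. Interleukin-6 and interleukin-11 first bind a receptor of their own, Il6ra or Il11ra1, whereas LIF pairs gp130 with Lifr and oncostatin M pairs it with Osmr. Clcf1 encodes a ligand that binds Cntfr together with Lifr and gp130. The assembled receptors activate JAK kinases and the transcription factor STAT3, which induces Socs3, an inhibitor that docks on gp130. In the lung, fibroblasts are a known source of interleukin-6, LIF and interleukin-11 in inflammation and scarring.

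Total counts ran from 37345575 to 50896445 per library, and levels are given as CPM, read counts scaled to a common library total by TMM, so that 3 counts corresponded to 0.0599 to 0.0801 CPM. On the first principal component of log2 CPM, which held 67.5% of the variance, the untreated libraries lay at -43.8 and -42.4 and those labelled 100 ng/ml both at -24.5, while those labelled 10 and 30 ng/ml lay between 22.8 and 40.9. The group labelled with the highest dose thus stood nearest to untreated cells, and doses are given as labelled throughout. The fibroblast label was checked on 10 marker genes, all detected in every library and tested, with summed levels of 32400 to 33600 CPM in untreated cells, 17500 to 18000 at 10 ng/ml, 18700 to 21500 at 30 ng/ml and 30500 to 31000 at 100 ng/ml. Epithelial markers summed to at most 0.462 CPM in any library, with Epcam and Nkx2-1 at 0 counts. Of 10 leukocyte and macrophage markers 7 had fewer than 100 counts over the 8 libraries, with C1qa and Cd3e at 0, whereas Cd68, also found in other cells, was higher at all 3 doses (2.06 CPM untreated and 8.84 CPM at 10 ng/ml, log2 change 2.10 ± 0.16, edgeR adjusted p = 5.55e-05). Lyz2 had 9.54 CPM untreated and 14.2, 14.7 and 17.6 CPM at 10, 30 and 100 ng/ml, and Csf1r 1.55, 1.67, 0.963 and 2.53 CPM. Both, named after their values were seen, were called at no dose. In such bulk samples fewer cells of a type and less RNA per cell cannot be told apart.

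Il6 and Lif moved in opposite directions under TWEAK. At 10 ng/ml Lif was 7.6 times its untreated level and Il6 0.261 times. Il11 rose less, Clcf1 and Socs3 were not called, and all 5 receptors fell. Of the 10 genes 8 were called at 10 ng/ml, 2 higher and 6 lower, where 29.2% of all genes tested were called, 15% higher and 14.2% lower (edgeR quasi-likelihood test, Benjamini-Hochberg adjusted p under 0.05). The same 8 had no overlap between the groups in CPM, as had 65.6% of all genes. The median log2 change of the 10 was -0.32, against 0.01 over all genes tested.

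**Figure D1:**
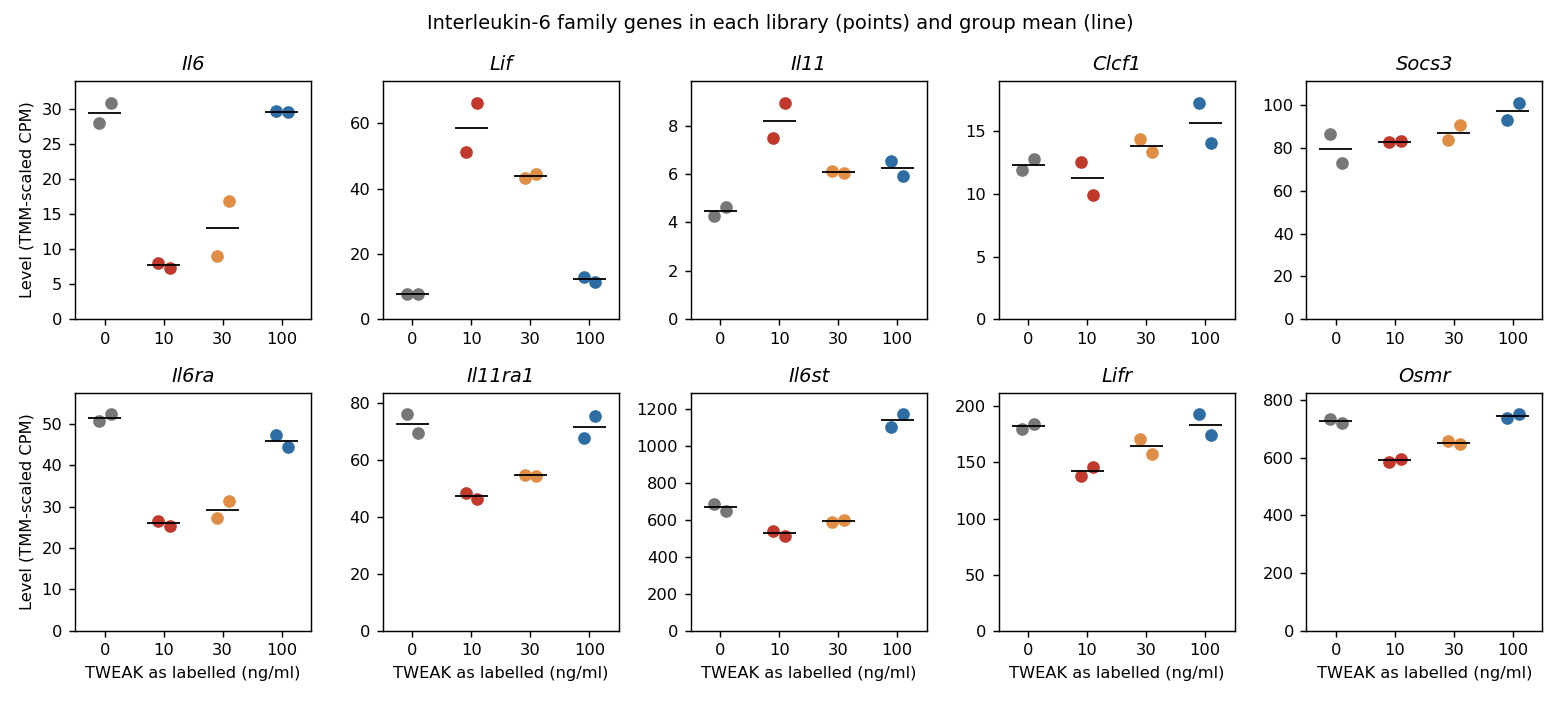
Level of each of the 10 genes in TMM-scaled CPM (y axes from 0) against the labelled TWEAK dose in ng/ml. Points are single libraries, 2 per group, and lines are group means. Il6 and the receptors are lowest at 10 ng/ml, Lif is highest there, and Il6st is highest in the libraries labelled 100 ng/ml.

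Among the ligands, Lif encodes leukemia inhibitory factor, a cytokine of stem cell maintenance and inflammation. It stood at 7.67 and 7.79 CPM in the untreated libraries, at 51.1 and 66.4 CPM at 10 ng/ml, at 43.4 and 44.6 CPM at 30 ng/ml, and at 13.1 and 11.5 CPM in those labelled 100 ng/ml. No treated library overlapped the untreated ones. The log2 change was 2.93 ± 0.14 at 10 ng/ml (SE, edgeR adjusted p = 7.56e-06) and 2.51 ± 0.14 at 30 ng/ml (edgeR adjusted p = 2.1e-05). In the libraries labelled 100 ng/ml it was 0.67 ± 0.14 and was not called (edgeR adjusted p = 0.0815). That call depended on the setting, since DESeq2 gave an adjusted p of 0.002, and edgeR gave 0.0427 without TWEAK10 replicate 1 and 0.0443 without TWEAK10 replicate 2, within a range of 0.002 to 0.322 over 16 alternatives.

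Il6 encodes interleukin-6, an inducer of the acute phase and of many inflammatory genes. Its level was 28.1 and 30.9 CPM in untreated cells, 8.1 and 7.3 CPM at 10 ng/ml, 9.03 and 16.9 CPM at 30 ng/ml, and 29.8 and 29.6 CPM at 100 ng/ml. The libraries at 10 and 30 ng/ml all lay below the untreated ones, and those labelled 100 ng/ml lay within the untreated range. The log2 change was -1.94 ± 0.26 at 10 ng/ml (edgeR adjusted p = 0.000939) and -1.19 ± 0.25 at 30 ng/ml (edgeR adjusted p = 0.0111). The libraries of the 30 ng/ml group were far apart, and the call at this dose was lost without untreated replicate 2 (edgeR adjusted p = 0.0573, with a range of 2.28e-06 to 0.0573 over 17 alternatives). Its log2 change at 100 ng/ml was 0.01 ± 0.24 (edgeR adjusted p = 0.997).

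Il11 encodes interleukin-11, a cytokine known for its profibrotic action on fibroblasts. It was at 4.25 and 4.66 CPM in untreated cells and at 7.48 and 8.96 CPM at 10 ng/ml, a log2 change of 0.88 ± 0.16 (edgeR adjusted p = 0.00426). At 30 ng/ml (6.15 and 6.05 CPM) and 100 ng/ml (6.54 and 5.93 CPM) it lay above the untreated libraries but was not called, with log2 changes of 0.45 ± 0.16 and 0.48 ± 0.16 (edgeR adjusted p = 0.081 and 0.268). Clcf1 had 11.9 and 12.8 CPM in untreated cells and between 9.94 and 17.3 CPM in the treated libraries, and was called at no dose (edgeR adjusted p = 0.572, 0.515 and 0.457 at 10, 30 and 100 ng/ml). The overlap of an exon of AC109138.7 covers 8.17% of the exon bases of Clcf1, on the same strand, which makes its counts less certain.

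Divided by exon length, the order of Il6 and Lif was the reverse in untreated and 10 ng/ml cells. Il6 had 12.1 ± 0.84 CPM per kb of exon in untreated cells and 3.17 ± 0.23 at 10 ng/ml (SD, n = 2), and Lif had 1.78 ± 0.019 and 13.5 ± 2.5. The ratio of Lif to Il6 per kb was 0.153 and 0.14 in the untreated libraries, 3.52 and 5.08 at 10 ng/ml, 2.68 and 1.47 at 30 ng/ml, and 0.245 and 0.217 at 100 ng/ml. It was thus above 1 in every library at 10 and 30 ng/ml and below 1 in the other 4.

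Promoters of Il6, Lif and Il11 are shown because the ligands differ most in their response. The 250 bases before the start site, from RefSeq on GRCm38.p6 and written 5′ to 3′ on the strand of the gene, were searched on both strands for the AP-1 motif TGANTCA, the kappa B motif GGNNTTTCC, the STAT motif TTCNNNGAA and the TATA box TATAAA. Capitals mark matches. The Il6 window lies at chr5:30012864-30013113 on the plus strand, the Lif window at chr11:4257318-4257567 on the plus strand, and that of the downstream start of Il11 at chr7:4778142-4778391 on the minus strand.
Il6: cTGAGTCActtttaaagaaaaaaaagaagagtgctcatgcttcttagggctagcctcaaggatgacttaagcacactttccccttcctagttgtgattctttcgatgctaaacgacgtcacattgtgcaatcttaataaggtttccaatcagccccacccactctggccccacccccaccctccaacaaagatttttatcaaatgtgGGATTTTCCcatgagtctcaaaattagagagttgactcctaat
Lif: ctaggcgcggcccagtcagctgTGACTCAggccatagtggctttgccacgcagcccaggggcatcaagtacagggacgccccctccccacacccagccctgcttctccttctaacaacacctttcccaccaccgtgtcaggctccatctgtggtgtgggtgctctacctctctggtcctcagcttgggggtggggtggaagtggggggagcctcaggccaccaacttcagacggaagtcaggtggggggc
Il11: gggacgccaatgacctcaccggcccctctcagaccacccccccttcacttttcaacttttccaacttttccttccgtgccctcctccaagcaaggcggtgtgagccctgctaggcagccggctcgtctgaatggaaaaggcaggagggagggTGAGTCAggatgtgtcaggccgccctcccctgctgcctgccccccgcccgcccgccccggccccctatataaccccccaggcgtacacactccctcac
Each of the 3 windows holds 1 AP-1 match, from -249 to -243 in Il6, -228 to -222 in Lif and -98 to -92 in Il11, counted from the start site. These 3 are the ligand windows that hold a match. The window of the upstream start of Il11, not printed, holds none. The Il6 window also holds a kappa B match from -43 to -35. An AP-1 match was present in 6.75% and a kappa B match in 4.93% of 32851 promoter windows of this length. Of the 10 genes 9, all but Clcf1, were in the promoter table, with 12 windows. The remaining windows held only 1 further match, a STAT motif in Socs3 (7.02% of all windows). The RefSeq start of Socs3 differs from that of GENCODE, and the bases after it were not found in a GENCODE transcript, so no position is given for that match. The exact letters TATAAA were found in none of the 12 windows (12.4% of all windows). Variants of this motif were not searched, and the Il11 window printed above holds the letters tatataa. A match of letters is a description and no evidence that a factor binds there.

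Socs3, the feedback inhibitor, stood at 86.5 and 73.1 CPM in untreated cells and between 82.7 and 101 CPM in the treated libraries. It was called at no dose, with log2 changes of 0.06 ± 0.10, 0.13 ± 0.10 and 0.28 ± 0.10 at 10, 30 and 100 ng/ml (edgeR adjusted p = 0.701, 0.392 and 0.281). The untreated libraries were farther apart than those of any treated group.

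**Figure D2:**
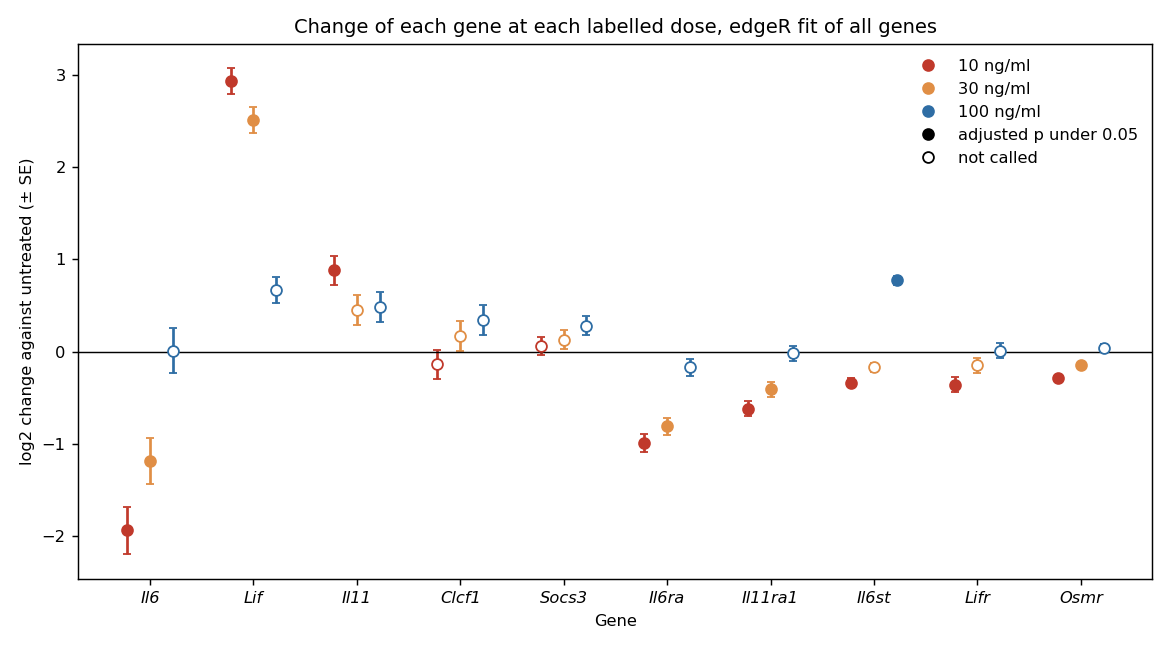
Log2 change of each of the 10 genes against untreated cells at 10, 30 and 100 ng/ml, with the SE of the edgeR fit as bars. Filled points have an adjusted p under 0.05. Lif lies at 2.93 and Il6 at -1.94 at 10 ng/ml, and Il6st is the only filled point at 100 ng/ml, at 0.77.

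Both ligand-binding receptors fell. Il6ra, which captures interleukin-6, was at 50.7 and 52.3 CPM in untreated cells, 26.6 and 25.4 CPM at 10 ng/ml, 27.2 and 31.4 CPM at 30 ng/ml, and 47.3 and 44.5 CPM at 100 ng/ml. All treated libraries lay below the untreated ones. Its log2 change was -0.99 ± 0.10 at 10 ng/ml (edgeR adjusted p = 0.000176) and -0.81 ± 0.09 at 30 ng/ml (edgeR adjusted p = 0.000629), and -0.17 ± 0.09 without a call at 100 ng/ml (edgeR adjusted p = 0.556). An antisense gene, Gm42809, overlaps 2.8% of the exon bases of Il6ra, and whether strand was used in counting is not given in the sources used here.

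Il11ra1, the receptor of interleukin-11, was at 75.9 and 69.2 CPM in untreated cells, 48.2 and 46.2 CPM at 10 ng/ml, 54.8 and 54.3 CPM at 30 ng/ml, and 67.6 and 75.3 CPM at 100 ng/ml. The libraries at 10 and 30 ng/ml lay below the untreated ones, and those at 100 ng/ml overlapped them. The log2 changes were -0.62 ± 0.08 at 10 ng/ml (edgeR adjusted p = 0.00101) and -0.41 ± 0.08 at 30 ng/ml (edgeR adjusted p = 0.00925). The call at 30 ng/ml was lost without untreated replicate 1 (edgeR adjusted p = 0.0692, with a range of 0.000923 to 0.0692 over 17 alternatives). Its near copy Il11ra2 had 0 counts in all 8 libraries, so adding it left the values as they were. No read shared between these copies was thus counted for Il11ra2. Whether such reads were counted for Il11ra1 or dropped is not given in the sources used here.

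Among the signalling receptors Il6st, on chromosome 13 (112464070 to 112510086 on mm10, plus strand), was the gene called in opposite directions at different doses. Il6st was at 688 and 651 CPM in untreated cells, 539 and 516 CPM at 10 ng/ml, 591 and 599 CPM at 30 ng/ml, and 1106 and 1172 CPM in the libraries labelled 100 ng/ml. No group overlapped another. It fell by 0.34 ± 0.05 at 10 ng/ml on the log2 scale (edgeR adjusted p = 0.00221), changed by -0.17 ± 0.05 without a call at 30 ng/ml (edgeR adjusted p = 0.0586), and rose by 0.77 ± 0.05 at 100 ng/ml (edgeR adjusted p = 0.00115). At 100 ng/ml it was the only 1 of the 10 genes called, where 1.12% of all genes tested were called. Of the genes tested 0.812% were higher and 0.305% lower. The median log2 change of the 10 was 0.16, against 0.00 over all genes. In CPM 7 of the 10 did not overlap the untreated libraries, where 44% of all genes did not. The rise of Il6st stayed called in 16 alternatives, with edgeR, limma or DESeq2 adjusted p of 4.97e-20 to 0.0141.

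Osmr, the oncostatin M receptor, was at 733 and 719 CPM in untreated cells, 587 and 597 CPM at 10 ng/ml, 657 and 648 CPM at 30 ng/ml, and 739 and 750.3 CPM at 100 ng/ml. It fell at 10 ng/ml by 0.29 ± 0.04 on the log2 scale (edgeR adjusted p = 0.00185). At 30 ng/ml the fall of 0.15 ± 0.04 was barely called (edgeR adjusted p = 0.0417) and lost its call in 12 of 17 alternatives, which ranged from 0.0324 to 0.203. Among these were DESeq2 (0.0928), the fit with the replicate number as a block (0.0787) and those leaving out untreated replicate 1 (0.203) or 2 (0.129), TWEAK10 replicate 2 (0.0521), TWEAK30 replicate 1 (0.107), TWEAK30 replicate 2 (0.137), TWEAK100 replicate 1 (0.0616) and TWEAK100 replicate 2 (0.0589). Its log2 change at 100 ng/ml was 0.04 ± 0.04 (edgeR adjusted p = 0.832).

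Lifr, the LIF receptor, was at 180.1 and 184 CPM in untreated cells, 138 and 146 CPM at 10 ng/ml, 171 and 158 CPM at 30 ng/ml, and 193 and 175 CPM at 100 ng/ml. It fell by 0.36 ± 0.08 at 10 ng/ml on the log2 scale (edgeR adjusted p = 0.00988), while the ligand Lif rose in the same libraries. The call was lost without untreated replicate 2 (edgeR adjusted p = 0.0556) or TWEAK10 replicate 1 (0.0551), within a range of 0.000737 to 0.0556 over 17 alternatives. At 30 and 100 ng/ml the log2 changes were -0.15 ± 0.08 and 0.01 ± 0.08 (edgeR adjusted p = 0.222 and 0.978). Osmr (chromosome 15, 6813577 to 6874969 on mm10) and Lifr (chromosome 15, 7090614 to 7197489) are neighbours, 215644 bases apart.

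The falls of the receptors stood beside a lower summed level of the fibroblast markers, of which 7 of 10 fell and 3 rose at 10 ng/ml, and of the mesothelial markers, which summed to 17.1 to 17.4 CPM in untreated cells and 5.54 to 7.56 CPM at 10 ng/ml. Smooth muscle and pericyte markers summed to 90.3 to 101 CPM and 51 to 60 CPM in the same groups, endothelial markers to 6.85 to 7.04 and 6.49 to 7.81 CPM, and leukocyte markers to 11.6 to 15.4 and 23.5 to 27.7 CPM. Within these sums single markers, named after their values were seen, moved in opposite directions at 10 ng/ml. The fibroblast markers Pdgfra (1263 to 1463 CPM), Dcn (1132 to 1500 CPM) and Vim (856 to 1235 CPM) rose. Those that fell were Col3a1 (8913 to 1911 CPM), Fn1 (11560 to 6568 CPM), Col1a1 (4090 to 1608 CPM), Col1a2, Pdgfrb, Lum and Thy1. The endothelial marker Cdh5 rose from 0.15 to 4.04 CPM and Tek fell from 4.74 to 1.46 CPM. Of the smooth muscle and pericyte markers, Rgs5 (0.561 to 4.87 CPM) and Cspg4 (0.75 to 2.63 CPM) rose. Myh11, Cnn1 and Kcnj8 (27.5 to 12.9 CPM) fell, and Notch3 was not called (-0.18 ± 0.19, edgeR adjusted p = 0.55). In the libraries labelled 100 ng/ml the mesothelial sum was 11.3 to 14.6 CPM and the leukocyte sum 24.6 to 27.3 CPM. Their part in the results was not tested.

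Per kb of exon, Il6st (60.3 ± 2.4) and Osmr (59.9 ± 0.81) led the family in untreated cells and did not differ beyond their spread. They were followed by Socs3 (27.6 ± 3.3), then by Lifr (16.9 ± 0.28) and Il11ra1 (16.2 ± 1), which did not differ beyond their spread, and by Il6 (12.1 ± 0.84), Il6ra (5.96 ± 0.13), Clcf1 (3.25 ± 0.15), Il11 (2.14 ± 0.14) and Lif (1.78 ± 0.019), all in CPM per kb as mean ± SD of 2 libraries. With the longest transcript in place of all exon bases Osmr (132 ± 1.8) stood above Il6st (77.1 ± 3) and Il11ra1 (27.9 ± 1.8) above Lifr (18.9 ± 0.31), so these positions rest on the length used. At 10 ng/ml Lif stood at 13.5 ± 2.5 CPM per kb, beside Lifr at 13.2 ± 0.57, and was the most abundant of the 4 ligands.

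**Figure D3:**
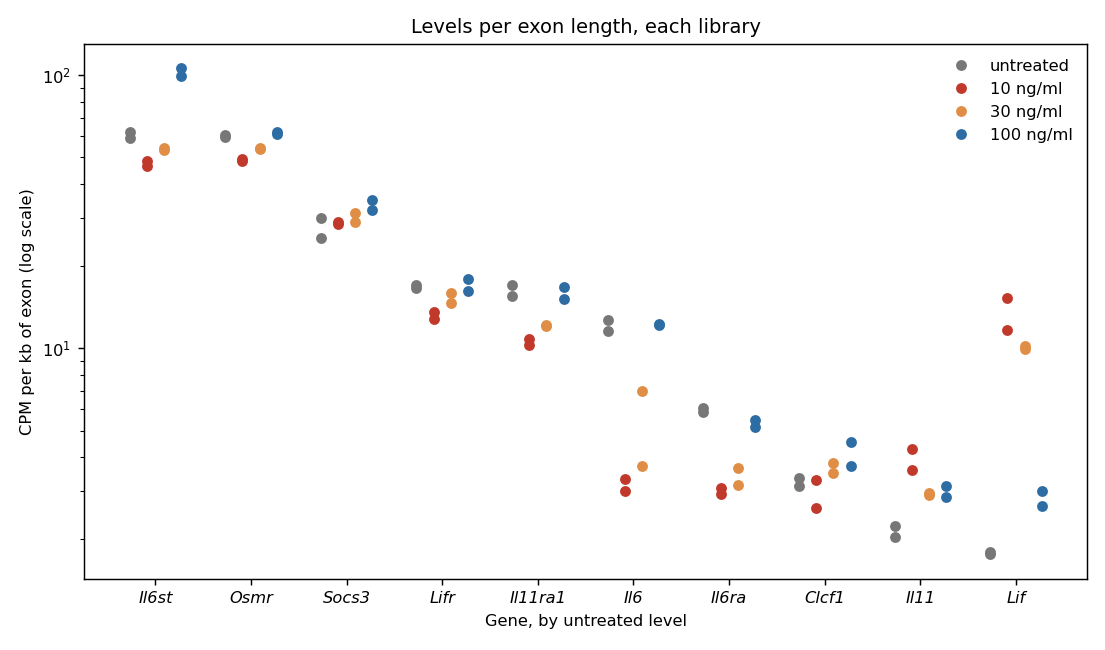
Level of the 10 genes per kb of exon (CPM per kb, log axis) in every library, ordered by the untreated level, with 2 points per group. Il6st and Osmr lead at about 60.3 and 59.9 in untreated cells, and Lif passes Il6 at 10 and 30 ng/ml.

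Doses were compared directly. At 30 ng/ml 5 of the 10 genes were called against untreated cells, Lif higher and Il6, Il6ra, Il11ra1 and Osmr lower, where 23.3% of all genes were called, 12.6% higher and 10.7% lower. The median log2 change of the 10 was -0.15, against 0.01 over all genes. In CPM 9 of the 10 did not overlap between the groups, as 63.2% of all genes. Between 30 and 10 ng/ml 0 of the 10 were called and 0% of all genes by edgeR, although 7 of the 10 had an unadjusted p under 0.05, as did 1208 of all genes, and DESeq2 and limma called 0 of the 10. In CPM the groups did not overlap for any of the 10, as for 36.4% of all genes. The Il6 difference between these doses depended on single libraries of the 30 ng/ml group, since without TWEAK30 replicate 1 its log2 difference was 1.14 (edgeR adjusted p = 0.0272, with a range up to 1 over 17 alternatives) in place of 0.75, and without TWEAK30 replicate 2 it was 0.23.

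The libraries labelled 100 ng/ml differed from those at 10 ng/ml in 7 of the 10 genes, where 22% of all genes were called, 10.7% higher and 11.2% lower. In CPM the groups did not overlap for any of the 10, as for 60.5% of all genes. Il6 (1.95 ± 0.26), Il6st (1.11 ± 0.05), Il6ra (0.82 ± 0.10), Il11ra1 (0.60 ± 0.08), Lifr (0.37 ± 0.08) and Osmr (0.33 ± 0.04) were higher at 100 ng/ml on the log2 scale, and Lif was lower (-2.26 ± 0.14), with edgeR adjusted p from 3.09e-05 for Il6st to 0.0118 for Lifr. The call of Lifr was lost without TWEAK10 replicate 1 (edgeR adjusted p = 0.063) or TWEAK100 replicate 1 (0.0719), within a range of 0.000576 to 0.0719 over 16 alternatives. Clcf1 was not called here (edgeR adjusted p = 0.0669) but was without TWEAK10 replicate 1 (0.0467, with a range of 0.0467 to 0.31).

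Against 30 ng/ml, 6 of the 10 genes differed, where 15.2% of all genes were called, 7.15% higher and 8.04% lower. In CPM 8 of the 10 did not overlap between the groups, as 57.3% of all genes. Lif was lower at 100 ng/ml (-1.84 ± 0.14, edgeR adjusted p = 0.000226), and Il6st (0.94 ± 0.05, edgeR adjusted p = 0.000114), Il6ra (0.65 ± 0.09, edgeR adjusted p = 0.00339), Il6 (1.19 ± 0.25), Il11ra1 (0.39 ± 0.08) and Osmr (0.19 ± 0.04) were higher. The last 3 had edgeR adjusted p of 0.0161, 0.0177 and 0.0255, and each lost its call in some alternative. In the fit of only the groups compared the call of Il6 was lost (edgeR adjusted p = 0.0519). Il6 lost it without TWEAK100 replicate 1 (0.069) or TWEAK100 replicate 2 (0.0637), within a range of 3.04e-06 to 0.069. Il11ra1 lost it without TWEAK30 replicate 1 (0.0858), TWEAK30 replicate 2 (0.0781) or TWEAK100 replicate 2 (0.0946), within a range of 0.00276 to 0.0946. Osmr lost it in 8 of 16 alternatives, among them the replicate block (0.0551) and the fits without untreated replicate 1 (0.0579), untreated replicate 2 (0.0561), TWEAK30 replicate 1 (0.0868), TWEAK30 replicate 2 (0.0939), TWEAK100 replicate 1 (0.0859) or TWEAK100 replicate 2 (0.107), within a range of 0.0206 to 0.107. These comparisons share their libraries with those against untreated cells.

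Other ligands and receptors of the family were read from a list of their own, and changes are given for 10 ng/ml. Osm, the ligand of Osmr, had 0 counts in all 8 libraries, which allows at most 3 counts in each, or 0.0599 to 0.0801 CPM. Il27ra, the receptor that pairs with gp130 for interleukin-27, had 2.49 ± 0.233 CPM untreated and 15.3 ± 0.453 CPM at 10 ng/ml (SD, n = 2). It rose by 2.62 ± 0.28 on the log2 scale (edgeR adjusted p = 0.000309). Cntfr, the receptor that binds Clcf1, fell from 12.9 ± 0.484 to 7.8 ± 0.91 CPM (-0.73 ± 0.19, edgeR adjusted p = 0.0227), a call lost without untreated replicate 1 (0.0975), untreated replicate 2 (0.0677) or TWEAK10 replicate 2 (0.112), within a range of 0.00474 to 0.112. Ctf1, cardiotrophin, had 4.7 ± 0.963 CPM untreated and 2.17 ± 1.35 CPM at 10 ng/ml without a call (-1.12 ± 0.39, edgeR adjusted p = 0.0659). Its value depended on single libraries, at -1.95 without TWEAK10 replicate 1 (edgeR adjusted p = 0.00439) and -0.59 without TWEAK10 replicate 2 (0.161), and DESeq2 (0.0217) and limma (0.0319) called it, within a range of 0.00439 to 0.242. Cntf had 0 and 46 counts in the untreated libraries, 0 in both at 10 ng/ml, 50 and 38 at 30 ng/ml, and 32 and 19 at 100 ng/ml.

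The signalling chain was read from 16 JAK-STAT genes, all tested, of which 3 rose and 4 fell at 10 ng/ml, and 3 and 4 at 30 ng/ml, beside 29.2% and 23.3% of all genes called. Their median log2 change at 10 ng/ml was -0.10, against 0.01 over all genes. Of these 16 at 100 ng/ml, edgeR and limma called 0 and DESeq2 called 2, where edgeR called 1.12% and DESeq2 598 of all 17360 genes. An unadjusted p under 0.05 was found for 7 of the 16, and for 2017 of all genes. Jak2, a kinase bound to gp130, rose from 131 ± 2.2 to 368 ± 6.76 CPM at 10 ng/ml (1.49 ± 0.09, edgeR adjusted p = 2.01e-05), and Stat5a and the phosphatase gene Ptpn2 rose by 0.83 ± 0.10 and 0.66 ± 0.08 on the log2 scale. Stat3 fell from 463 ± 3.06 to 363 ± 15.3 CPM (-0.35 ± 0.06, edgeR adjusted p = 0.00217), and Gab1, an adaptor of gp130 signalling, fell by 0.93 ± 0.09. Of 10 feedback inhibitors other than Socs3, 3 rose and 1 fell at 10 ng/ml, beside 29.2% of all genes called. Their median log2 change was -0.05, against 0.01 over all genes. In the 100 ng/ml group edgeR, limma and DESeq2 called 0, and 1 had an unadjusted p under 0.05, as had 2017 of all 17360 genes. Cish (1.62 ± 0.26, edgeR adjusted p = 0.00233), Socs5 (0.51 ± 0.11) and Socs1 (0.79 ± 0.20) rose and Pias1 (-0.32 ± 0.09) fell, while Socs4 (-0.37 ± 0.12) was not called (edgeR adjusted p = 0.0549). Socs4 was called in 6 of 17 alternatives, among them DESeq2 (0.0269), limma (0.047), only the groups compared (0.0189) and the fits without TWEAK100 replicate 1 (0.0123) or TWEAK100 replicate 2 (0.0116), within a range of 0.0116 to 0.179. The list held 2 calls without untreated replicate 1 and also 2 without untreated replicate 2, where 1 of them was of a gene not called with all libraries. Of single genes, the calls of Socs1, Socs5 and Pias1 were lost when untreated replicate 2 was left out (edgeR adjusted p = 0.0975, 0.0558 and 0.0943), those of Socs1 and Pias1 also without untreated replicate 1 (0.0626 and 0.141), that of Socs1 without TWEAK10 replicate 1 (0.111) and that of Pias1 without TWEAK10 replicate 2 (0.156). Over 17 alternatives the ranges were 0.00668 to 0.111 for Socs1, 5.64e-05 to 0.0558 for Socs5 and 0.0256 to 0.156 for Pias1.

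Known STAT3 target and acute-phase genes formed a list of 32, of which 28 were tested, and they split at 10 ng/ml into 12 that rose and 6 that fell, beside 15% of all genes called higher and 14.2% lower. Their median log2 change was 0.32, against 0.01 over all genes. Among the rises were the adhesion molecule gene Icam1 (from 130 ± 1.81 to 612 ± 15.4 CPM), the cyclin gene Ccnd1 (from 24.3 ± 0.812 to 202 ± 8.81 CPM), the protease inhibitor genes Serpina3g (2.63 ± 0.12 on the log2 scale) and Timp1 (0.93 ± 0.05), and the AP-1 subunit gene Junb (1.35 ± 0.09). Several of these are also known targets of NF-kB. The acute-phase genes Saa3, Hp and Lbp, named after their values were seen, fell. Saa3, a serum amyloid A gene, went from 170 and 255 CPM to 39.8 and 43.9 CPM (-2.35 ± 0.26, edgeR adjusted p = 0.000371), Hp, haptoglobin, from 38.5 and 46.9 CPM to 11.7 CPM in both libraries (-1.87 ± 0.22, edgeR adjusted p = 0.000463), and Lbp, the lipopolysaccharide binding protein, from 49.9 and 49.8 CPM to 15.1 and 15.3 CPM (-1.71 ± 0.14, edgeR adjusted p = 6.85e-05). No library at 10 ng/ml overlapped the untreated ones for these 3 genes, as for 65.6% of all genes. Further genes of the list were also named after their values were seen. Serpina3n fell from 1563 to 1147 CPM (-0.45 ± 0.05, edgeR adjusted p = 0.000523), and Cd14 rose by 1.22 ± 0.17 on the log2 scale (edgeR adjusted p = 0.00104). Lcn2 (0.30 ± 0.43, edgeR adjusted p = 0.663) and A2m (0.49 ± 0.33, edgeR adjusted p = 0.315) were not called. These values were not followed through the alternatives. Saa1, Saa2, Fgg and Fgb did not pass the low-count filter and were not tested.

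At 100 ng/ml 5 of the 28 rose and none fell, beside 0.812% and 0.305% of all genes, Serpina3g by 1.11 ± 0.11 (edgeR adjusted p = 0.00429), Ccnd1 by 0.88 ± 0.12 (0.0171), Junb by 0.78 ± 0.09 (0.00709), Icam1 by 0.49 ± 0.08 (0.0307) and Timp1 by 0.39 ± 0.05 (0.0153) on the log2 scale. DESeq2 called 9 of the list, and 598 of all 17360 genes. Leaving out untreated replicate 1 gave 2 calls and untreated replicate 2 gave 1 call, and 3 were called without TWEAK100 replicate 1. Without TWEAK100 replicate 2 the number was also 3, but Icam1 (0.145), Ccnd1 (0.067) and Timp1 (0.0759) lost their calls and 1 other gene of the list gained one. The call of Icam1 was also lost without TWEAK10 replicate 1 (edgeR adjusted p = 0.0617) or TWEAK10 replicate 2 (0.0611) and under the replicate block (0.0592), within a range of 1.2e-05 to 0.187 over 16 alternatives. The ranges were 1.09e-09 to 0.128 for Ccnd1, 7.45e-12 to 0.056 for Junb and 2.54e-05 to 0.124 for Timp1, and Serpina3g stayed called in all 16.

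Transcription factors and RNA-binding proteins known to act on Il6 or Lif formed a list of 16, all tested. At 10 ng/ml 8 rose and 2 fell, at 30 ng/ml 9 and 2, and 1 rose at 100 ng/ml. The shares of all genes called were 29.2%, 23.3% and 1.12%. DESeq2 called 5 of the list at 100 ng/ml, where it called 598 of all 17360 genes. The median log2 change of the 16 at 10 ng/ml was 0.63, against 0.01 over all genes. Nfkb2, an NF-kB subunit of the non-canonical pathway, rose by 2.78 ± 0.07 on the log2 scale at 10 ng/ml and by 1.12 ± 0.07 at 100 ng/ml, the gene called at 100 ng/ml (edgeR adjusted p = 1.27e-06 and 0.000759). Its partner Relb (2.00 ± 0.12), the inhibitor gene Nfkbia (2.72 ± 0.13) and the AP-1 subunit gene Fosl1 (3.45 ± 0.27) rose at 10 ng/ml. Arid5a, a protein that stabilises Il6 mRNA, rose from 16.9 ± 1.2 to 45.7 ± 0.936 CPM (1.44 ± 0.12, edgeR adjusted p = 9.24e-05) in the libraries in which Il6 fell. The 2 genes of the list that fell there, named after their values were seen, were Nfkbiz (-0.99 ± 0.13, edgeR adjusted p = 0.00108) and Jund (-0.58 ± 0.11, edgeR adjusted p = 0.00666). Their calls were not followed through the alternatives. Of the proteins of the list that destabilise mRNA, all named after their values were seen, Zfp36 rose by 0.71 ± 0.17 (edgeR adjusted p = 0.0162). Zc3h12a (-0.17 ± 0.11, edgeR adjusted p = 0.314) and the more abundant Zfp36l1 (360 to 373 CPM, 0.05 ± 0.07, edgeR adjusted p = 0.658) were not called. Zfp36l1 was not followed through the alternatives. The call of Zfp36 was lost without untreated replicate 1 (0.0877), untreated replicate 2 (0.0592) or TWEAK10 replicate 2 (0.0807), within a range of 0.000169 to 0.0877.

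**Figure D4:**
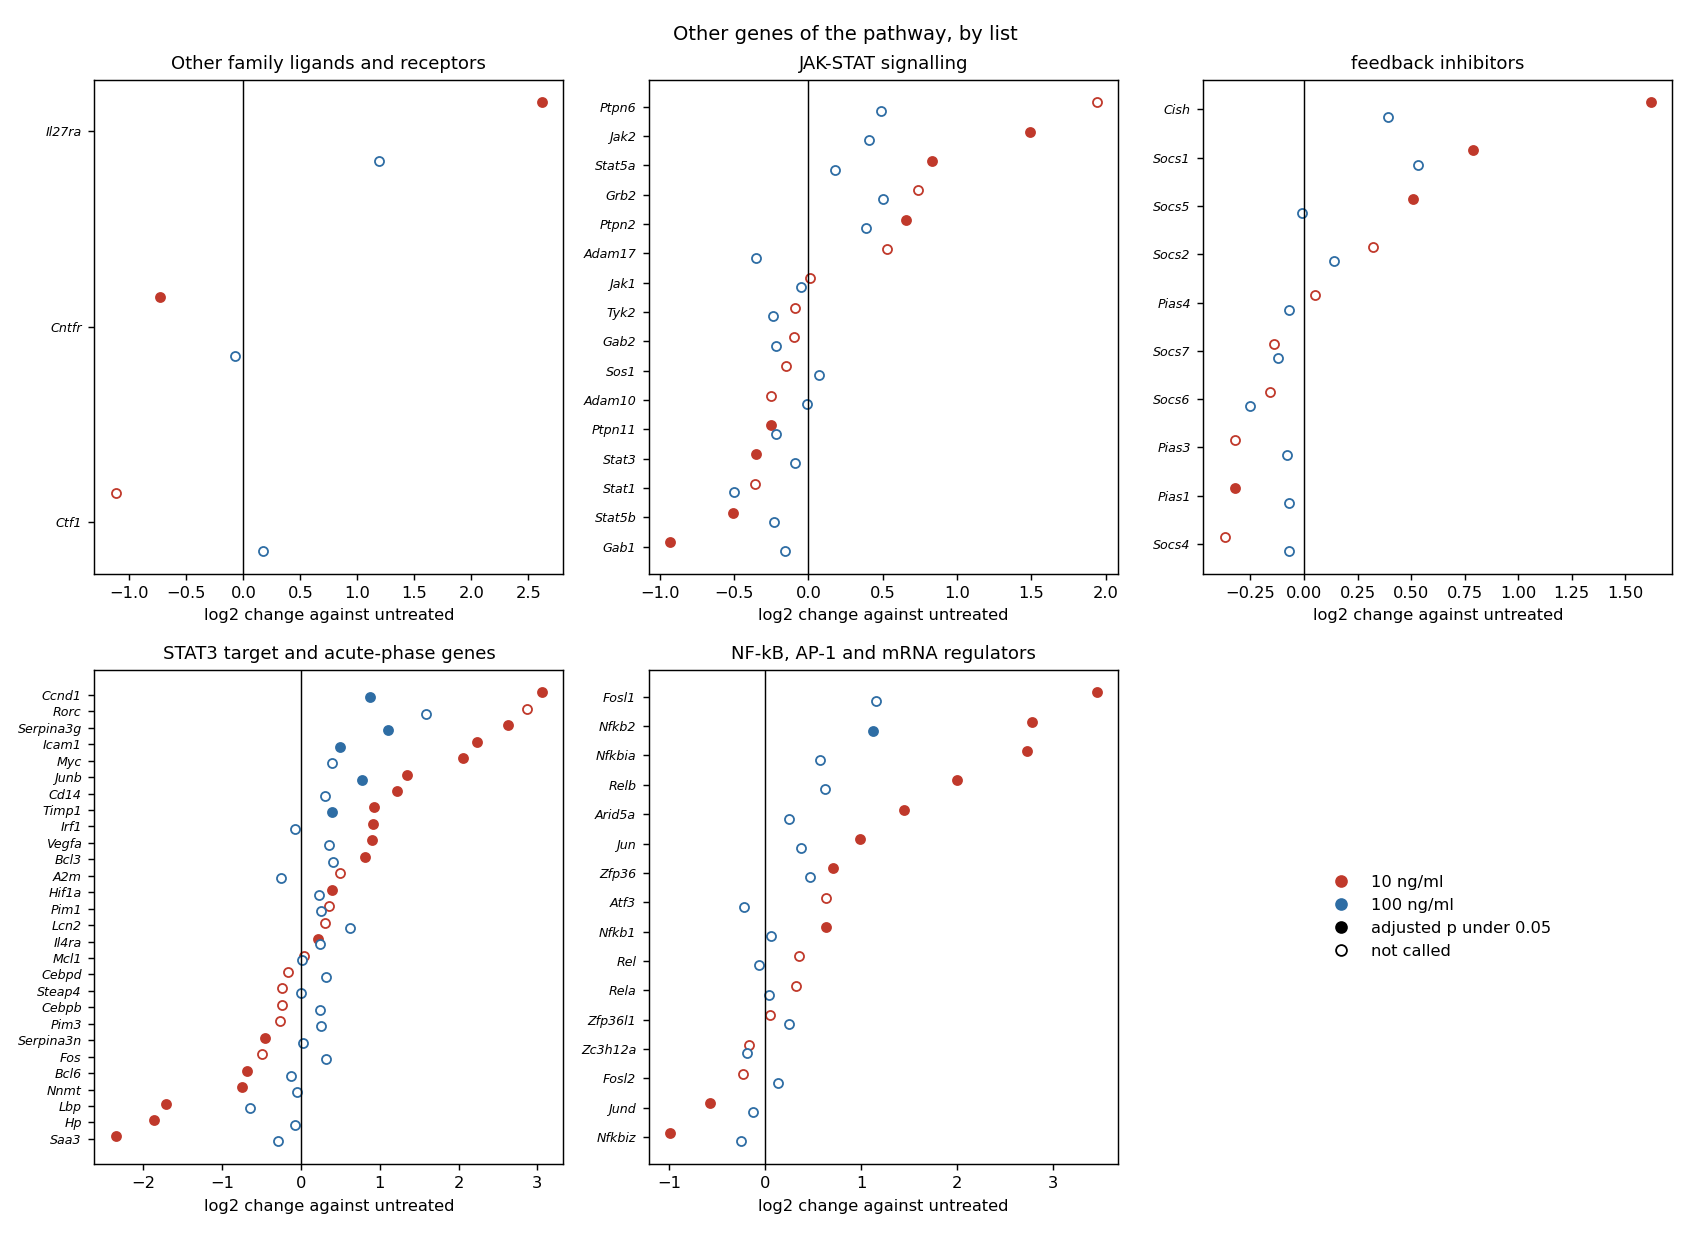
Log2 change against untreated cells of the other pathway genes that were tested, by list, at 10 ng/ml (red) and 100 ng/ml (blue), with filled points for an adjusted p under 0.05. Cntf, with 0 counts at 10 ng/ml, is not drawn, and the panel of other family genes shows only those reported here. Il27ra, Jak2 and Ccnd1 lie to the right at 10 ng/ml and Gab1 and Saa3 to the left, and most points at 100 ng/ml lie nearer to 0.

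The genes whose pattern over the 8 libraries was most like that of Lif, by Pearson correlation of log2(CPM + 1) among 10551 genes whose mean reached 5 CPM, were Ahr, Cep192 and Mpp6, each at r = 0.998. Those most like Il6 were Anp32a (r = 0.997), Mmp11 (0.994) and Ephb6 (0.994). Mmp11, a matrix metalloproteinase gene, went from 103 and 101 CPM in untreated cells to 62.1 and 57.7 CPM at 10 ng/ml and to 108 and 101 CPM at 100 ng/ml. These correlations describe 8 libraries in 4 groups and largely follow the group means.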

How the data were processed

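RNA from primary mouse lung fibroblasts was sequenced in 8 libraries. The authors deposited unnormalised counts for each gene. Per the submitters' processing notes mm10, STAR and StringTie were used, with no version or role; the counter, annotation and strand setting were not stated. Of 55335 rows, 3225 carried no symbol (0.168% to 0.178% of counts) and were left out. Counts were filtered with filterByExpr, scaled by TMM and fitted with edgeR 4.0.16 (R 4.3.3), 1 mean per group over all 8 libraries, with 4 residual and 3.77 prior degrees of freedom. All 6 contrasts between groups were tested, two-sided, adjusted by Benjamini-Hochberg over 17360 genes, threshold 0.05. SEs come from the F statistic and are approximate. Replicates were not copies of each other (chi-square per degree of freedom 24.5 to 29.8). Alternatives were DESeq2 1.42.0, limma 3.58.1 (voom), other scalings and filters, only the groups compared, a replicate block and leaving out each library, and, chosen after seeing the data, dropping the 100 ng/ml group. The genes, lists and comparisons were chosen with earlier results of these data known. All 10 genes are named, with up to 5 genes per list by smallest p at 10 ng/ml, any called at 100 ng/ml, and those stated as named after their values were seen. Lists are described by counts, with no set test. Positions and exon lengths are from GENCODE M21 on mm10, and promoters from RefSeq. Protein sequences were not used here, and 1 item of the lists is not reported here, so the list that holds it is given by gene and not by count. The test was checked on simulated counts.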

Additional observations from a re-analysis of the deposited data

Results flagged for a closer look

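Il6st fell at 10 ng/ml and rose in the libraries labelled 100 ng/ml, both called by edgeR, and the difference between these doses was itself tested, with a log2 difference of 1.11 ± 0.05 (100 against 10 ng/ml, edgeR adjusted p = 3.09e-05). Both libraries labelled 100 ng/ml (1106 and 1172 CPM) lay above every other library.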

How the results depend on the processing

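Of 60 member changes tested 27 were called, and 19 of these kept the call in each of up to 17 alternatives. The 8 that did not are given with their values in the report. For uncalled values near 0 the sign changed with the setting. At 10 ng/ml Clcf1 was 0.02 without TWEAK10 replicate 2 (-0.32 to 0.02 with 1 library left out) and Socs3 -0.06 without untreated replicate 2 (-0.06 to 0.18). At 100 ng/ml Il6 was -0.00 without the low-count filter and -0.06 without untreated replicate 1 (-0.06 to 0.08), Lifr was -0.00 in both of these and -0.06 without TWEAK100 replicate 1 (-0.06 to 0.08), and Il11ra1 was 0.05 without untreated replicate 1 or TWEAK100 replicate 1 (-0.10 to 0.05). Il11 at 100 against 30 ng/ml was -0.04 without TWEAK100 replicate 1 (-0.04 to 0.10). DESeq2 called 2 of the 10 genes at 100 ng/ml in place of 1, and over all genes 598 in place of 194 there and 129 in place of 0 between 30 and 10 ng/ml. For the latter comparison the fit of only the groups compared called 5 genes, and the fit without both libraries labelled 100 ng/ml called 3.

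With 1 library left out, the number of the 10 genes called ranged from 3 to 5 at 30 ng/ml, from 1 to 2 at 100 ng/ml, from 0 to 1 between 30 and 10 ng/ml and from 3 to 6 between 100 and 30 ng/ml. The number of all genes called ranged from 2557 to 3913 at 30 ng/ml (4041 with all libraries), 88 to 233 at 100 ng/ml, 3 to 59 between 30 and 10 ng/ml, 2445 to 3599 between 100 and 10 ng/ml (3816) and 1393 to 2525 between 100 and 30 ng/ml (2637). The cause was not tested. These fits take the spread of the remaining single library from the other groups.

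Deviations of same-numbered libraries from their group means correlated between -0.07 and 0.03 over the genes tested, so no shared shift by replicate number was seen. With 2 libraries per group this cannot show whether same-numbered libraries had a common origin. With the replicate number as a block 8, 4 and 1 of the 10 genes were called at 10, 30 and 100 ng/ml, and 4661, 3578 and 136 of all genes. It lost only the 2 Osmr calls given in the report among the 10 genes and changed no other of their calls. Exon length was set by all exon bases or the longest transcript, and adding Il11ra2 to Il11ra1 changes nothing because all its counts are 0. A count of 0 allows up to 3 counts, or 0.0599 to 0.0801 CPM, for the genes reported at 0.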
